A study of Mus musculus with 12 samples.

Results

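The genes examined here are 50 mouse genes of the TNF, IL-17 and NF-kB inflammatory response, measured in C18-4 cells, an immortalized line of mouse spermatogonia. They were chosen by symbol as genes of the pathway and not by a cut on these values, but with earlier results of these data known. Shares of the set beside those of all genes are to be read with that limit. Of the 50 genes, 48 were listed among the 17576 genes of the table, and Cxcl12 and Il1b were not analysed here. The set holds 20 secreted ligands, 5 receptors, 13 NF-kB components, 2 other feedback genes and 10 effectors. Of the 48 listed genes, 38 reached 1 RPKM (a read count scaled by the length of the gene and the size of the library) in at least 3 of the 12 libraries and were tested, against 11435 of all genes.

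The 12 RNA-seq libraries came from 4 groups of 3, all of C18-4 cells that carried a lentivirus in a stable way. By the labels and by the constructs in the methods of the study, 3NC carried the LV3 vector with a control shRNA, C18_5251KD (KD) carried LV3 with a mixture of 3 shRNAs against lncRNA5251, 5NC carried the LV5 vector alone, and C18_5251OV (OV) carried LV5 with lncRNA5251. A heading in the supplement names another lncRNA for the work in these cells, and the labels were followed. The strain is given as IRC mouse in the labels for every group. The question was which genes change with the amount of lncRNA5251. The study names its control in these cells only as NC, and KD was compared here with 3NC and OV with 5NC, the group with the same vector. Nothing in the sources says that the 3 libraries of a group came from separate cultures, so the p-values measure the spread between these libraries, which may be technical.

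TNF and IL-17 are cytokines that bind receptors on the cell surface and lead to the release of NF-kB, a dimeric transcription factor, from its inhibitors, the IkB proteins. NF-kB then switches on genes of chemokines and cytokines, which are secreted and attract or stimulate white blood cells, and also genes of its own inhibitors, which end the response. IL-17 acts in part by keeping the mRNAs of such targets stable. In the testis, somatic cells and germ cells both make cytokines of this kind, which take part in local immune control and in the exchange of signals between cells.

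Summed over all genes, the libraries held 533099 to 580920 RPKM, and their relative depth, judged from 90 low genes, ranged from 0.991 to 1.01. Depth in reads is unknown. LncRNA5251 has no entry of its own in the table. As a check of the labels, Purb, the only gene with an exact match to each of the 3 shRNA sequences, fell in KD against 3NC (log2 fold change -1.75). It was not called in OV against 5NC (-0.19, adjusted p = 0.176, limma), and the OV label has no such check. Since lncRNA5251 was not measured here, effects of lower Purb and of lower lncRNA5251 cannot be told apart in KD. The libraries of KD and of OV differed among themselves by GC content. Across genes, the deviation of a library from its group mean ran with GC content with a Spearman's rho of 0.34, 0.64 and -0.71 for KD replicates 1 to 3 and of 0.49, 0.34 and -0.58 for OV replicates 1 to 3, against -0.31 to 0.28 for the control libraries. The fold changes of OV against 5NC also ran with GC content (rho 0.41 across 11236 genes) and with length (rho -0.42), so counts of KD and OV genes are also given with libraries left out. Of 17 listed markers of spermatogonia, 4 (Uchl1, Itga6, Etv5 and Id4) reached 1 RPKM in 3 libraries, while Ret, Nanos2 and Kit were listed at 0 in all 12 libraries and Gfra1, Zbtb16, Ddx4 and Dazl stayed at or under 0.17 RPKM. Of 9 listed markers of Sertoli cells, 4 reached 1 RPKM in 3 libraries, and the list summed to between 58.8 and 67.3 RPKM over all groups, most of it Wt1. Markers of white blood cells summed to between 21.3 and 23.7 RPKM in 3NC, 24.6 and 26.3 in KD, 11.0 and 11.3 in 5NC and 7.30 and 9.92 in OV. Nearly all of that sum was Cd74 and Cd68, while the defining markers Ptprc, Csf1r and Itgam stayed at or under 0.07 RPKM. Markers of fibroblasts and mesenchyme, of which 7 of 9 listed reached 1 RPKM in 3 libraries, summed to between 838.6 and 881 RPKM in 3NC, 944 and 1043 in KD, 1143 and 1185 in 5NC and 1213 and 1292 in OV. Vim and Col1a1 made most of that sum, Dcn had means of 21.6, 36.1, 111.9 and 108 RPKM in the same order, and the part of these differences in the results was not tested.

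NF-kB binds a DNA element called kappaB, and AP-1 and C/EBP are further factors with known elements in genes of this kind. The 250 bases before the start sites in the RefSeq promoter table (build GRCm38.p6) were searched on both strands for the kappaB consensus, for AP-1 (TGANTCA) and for C/EBP (TTGCNNAA). The table held 46 promoters of 41 of the 50 genes, the others being Ccl2, Ccl5, Ccl7, Csf3, Cxcl5, Il17ra, Mmp9, Nfkb1 and Relb. A kappaB match was found in 13 of the 46 promoters, from 11 genes, against 3.9% of all 32851 promoters. The stretches below, of 20 bases on either side where the window allowed, are shown because they belong to ligands and inhibitors whose values are described next, and all are printed 5′ to 3′ on the strand of the gene with the kappaB match in capitals. No AP-1 or C/EBP match overlapped a kappaB match. Where the stretch also held an AP-1 match (Cxcl10 and Tnfaip3, TGAGTCA and TGACTCA) or a C/EBP match (Il6, TTGTGCAA, read on the other strand), that is in capitals too.
Cxcl1, chr5:90891154-90891204, plus strand: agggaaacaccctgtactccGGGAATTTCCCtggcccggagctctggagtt
Cxcl10, chr5:92348937-92349068, minus strand: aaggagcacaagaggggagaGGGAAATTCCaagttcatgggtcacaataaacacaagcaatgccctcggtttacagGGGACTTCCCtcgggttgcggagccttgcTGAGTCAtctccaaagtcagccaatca
Ccl20, chr1:83116666-83116715, plus strand: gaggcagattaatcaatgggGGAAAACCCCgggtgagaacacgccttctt
Il6, chr5:30012966-30013099, plus strand: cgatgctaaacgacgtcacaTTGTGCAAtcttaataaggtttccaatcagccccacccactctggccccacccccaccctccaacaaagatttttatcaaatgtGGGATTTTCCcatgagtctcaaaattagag
Csf1, chr3:107760594-107760643, minus strand: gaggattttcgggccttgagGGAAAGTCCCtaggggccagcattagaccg
Nfkbia, chr12:55492648-55492696, minus strand: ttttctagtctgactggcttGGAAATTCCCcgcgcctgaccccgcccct
Tnfaip3, chr10:19015411-19015566, minus strand: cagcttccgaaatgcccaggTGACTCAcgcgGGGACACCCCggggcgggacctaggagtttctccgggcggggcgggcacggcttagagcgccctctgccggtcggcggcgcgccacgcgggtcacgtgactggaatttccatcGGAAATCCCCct
Tnip1, chr11:54962967-54963018, minus strand: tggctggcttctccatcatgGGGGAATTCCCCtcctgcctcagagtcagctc

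An AP-1 match was found in 10 of the 46 promoters, against 6.75% of all promoters, and a C/EBP match in 10, against 9.56%. The stretches of Lif and of 3 matrix metalloproteinase genes are shown with the AP-1 match in capitals, and those of Lcn2 and Saa3 with the C/EBP match in capitals. Such a match is a description of letters and not a binding site, and the absence of a match says only that these letters are not in this window.
Lif, chr11:4257320-4257366, plus strand: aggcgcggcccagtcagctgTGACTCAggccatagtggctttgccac
Mmp10, chr9:7502259-7502305, plus strand: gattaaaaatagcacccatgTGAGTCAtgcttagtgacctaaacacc
Mmp3, chr9:7445756-7445802, plus strand: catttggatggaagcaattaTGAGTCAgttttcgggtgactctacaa
Mmp13, chr9:7272459-7272505, plus strand: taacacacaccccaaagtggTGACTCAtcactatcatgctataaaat
Lcn2, chr2:32387928-32387975, minus strand: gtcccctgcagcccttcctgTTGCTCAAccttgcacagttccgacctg
Saa3, chr7:46715748-46715795, minus strand: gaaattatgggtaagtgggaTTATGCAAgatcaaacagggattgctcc

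**Figure D1:**
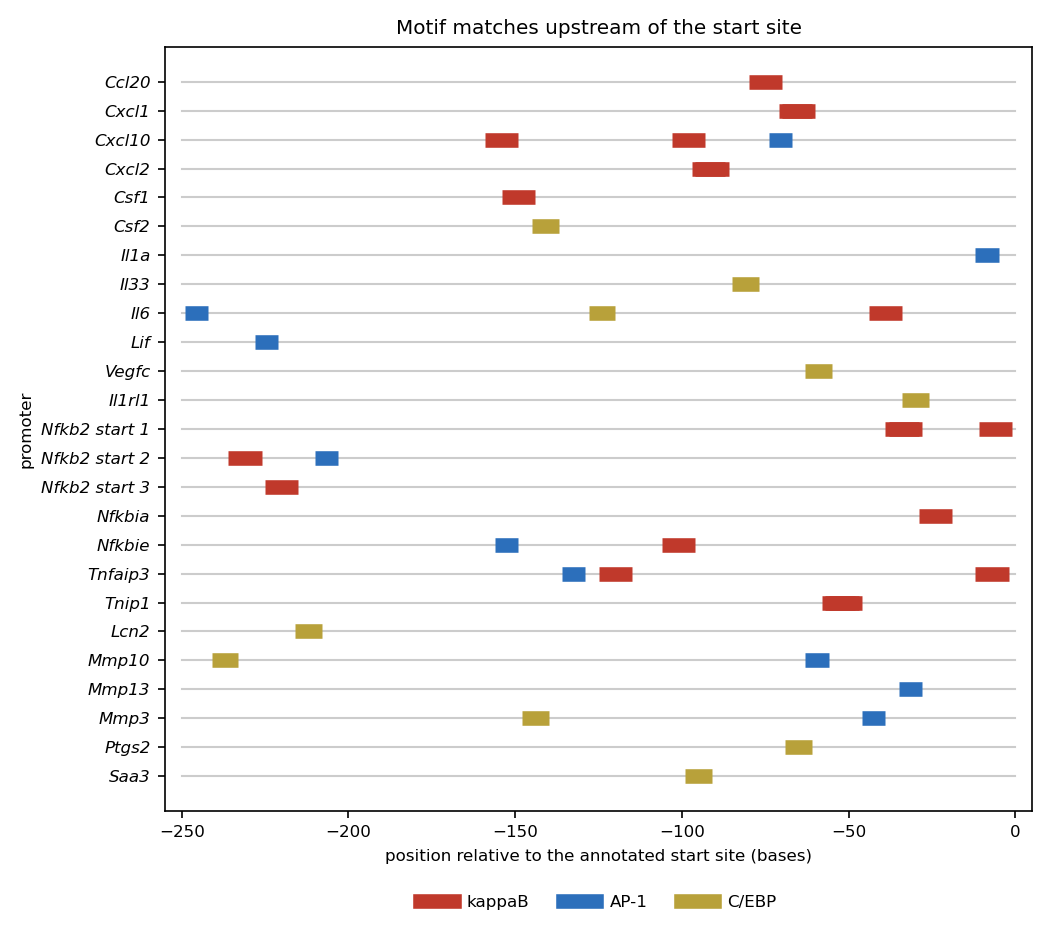
Matches to the kappaB (red), AP-1 (blue) and C/EBP (ochre) elements in the 250 bases before the start sites of the genes with at least 1 match, with the position relative to the start site in bases on the x axis and 1 line per promoter. The kappaB matches of Cxcl1, Cxcl10, Ccl20 and Il6 start within 159 bases of the start site, and Nfkb2 has 3 start sites that are drawn separately.

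Before any comparison, the levels show which genes of the set these cells used. The 13 tested ligands had a median of 9.35 RPKM in 3NC, against 15.99 for the 13 tested NF-kB components and 13.7 for all genes tested, and with the 5 ligands that were listed but not tested the median was 3.25. Ccl2, a chemokine that attracts monocytes, was the highest ligand, at 234.7 ± 17.1 RPKM in 3NC (SD, n = 3). Nfkbia, the gene of the inhibitor IkB-alpha, was the highest NF-kB component, at 93.0 ± 2.95 RPKM. Tnf itself was listed at 0.04, 0 and 0.04 RPKM in the 3NC libraries, 0, 0.09 and 0.09 in KD, 0.05, 0 and 0.04 in 5NC and 0 in all 3 of OV, so the ligand that gives the pathway its name was at or near 0 in all groups. The receptors Tnfrsf1a and Il17ra were at 51.3 ± 0.786 and 9.55 ± 0.546 RPKM in 3NC (SD, n = 3).

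Of the 48 listed genes, 10 stayed under the limit and were not tested. Cxcl2, Tnf, Il1a, Csf2 and the receptor gene Il1rl1 were at or under 0.22 RPKM in every library. The other genes, Csf3, Ptges, Mmp3, Mmp13 and Icam1, ranged up to 1.69 RPKM. Mmp3, a stromelysin that degrades matrix, was at 0.430, 0.590 and 0.630 RPKM in 3NC, and at 0, 0.0400 and 0 in KD, so its highest KD library was below its lowest 3NC library. Mmp13, a collagenase, was at 1.05, 1.01 and 0.930 RPKM in 3NC and 0.540, 0.400 and 0.360 in KD, again without overlap. Icam1, an adhesion molecule for white blood cells, was at 0.190, 0.160 and 0.190 RPKM in 3NC and 0.460, 0.750 and 0.790 in 5NC. Of the 38 tested genes, Cxcl5, Il6 and Mmp10 passed the limit through 3NC alone, Traf1 and Mmp9 through 3NC and KD, Saa3 through 5NC and OV, and Ptgs2 through all groups but OV, so a difference between those groups and the others was built into their passing. Counts are therefore also given over the 31 genes that reached 1 RPKM in at least 1 library of each group, to be read against the 10942 of all genes that did so.

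In the comparison of knockdown with its own control, all 7 chemokine genes of the set that were tested fell, among them Cxcl1, Ccl5 and Ccl7. Of the chemokine genes tested outside the set, Ccl17 and Cx3cl1 rose and Cxcl16 fell. The cytokine genes Lif and Il6 and the effector genes Mmp10 and Lcn2 fell as well. Il18, Il33 and Vegfc rose. Fold changes are differences of log2(RPKM + 1), which understate the change of genes with low RPKM, and a gene was called at an adjusted p of at most 0.05 (limma, all libraries in 1 fit, Benjamini-Hochberg adjustment over the 11435 genes). Of the 38 genes, 23 fell, against 23.5% of all genes tested, and 4 rose, against 31.9%. Among the 31 genes that reached 1 RPKM in each group, 18 fell (23.8% of all such genes) and 4 rose (31.7%). The threshold of the study asks for an adjusted p no higher than 0.001 and a log2 fold change of 1 or more in either direction. By it, 6 fell (1.08% of all genes) and 1 rose (0.498%), or 5 and 1 of the 31. Without KD replicate 3 the counts were 20 lower and 6 higher, and without KD replicate 1 or 2 they were 23 and 4. Without 3NC replicate 1, 2 or 3, the lower genes were 18, 19 and 18 and those past the threshold of the study 5, with Cxcl5, Il6 and Mmp10 no longer tested. Less RNA of a gene per cell and fewer cells that express it cannot be told apart in these bulk libraries.

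**Figure D2:**
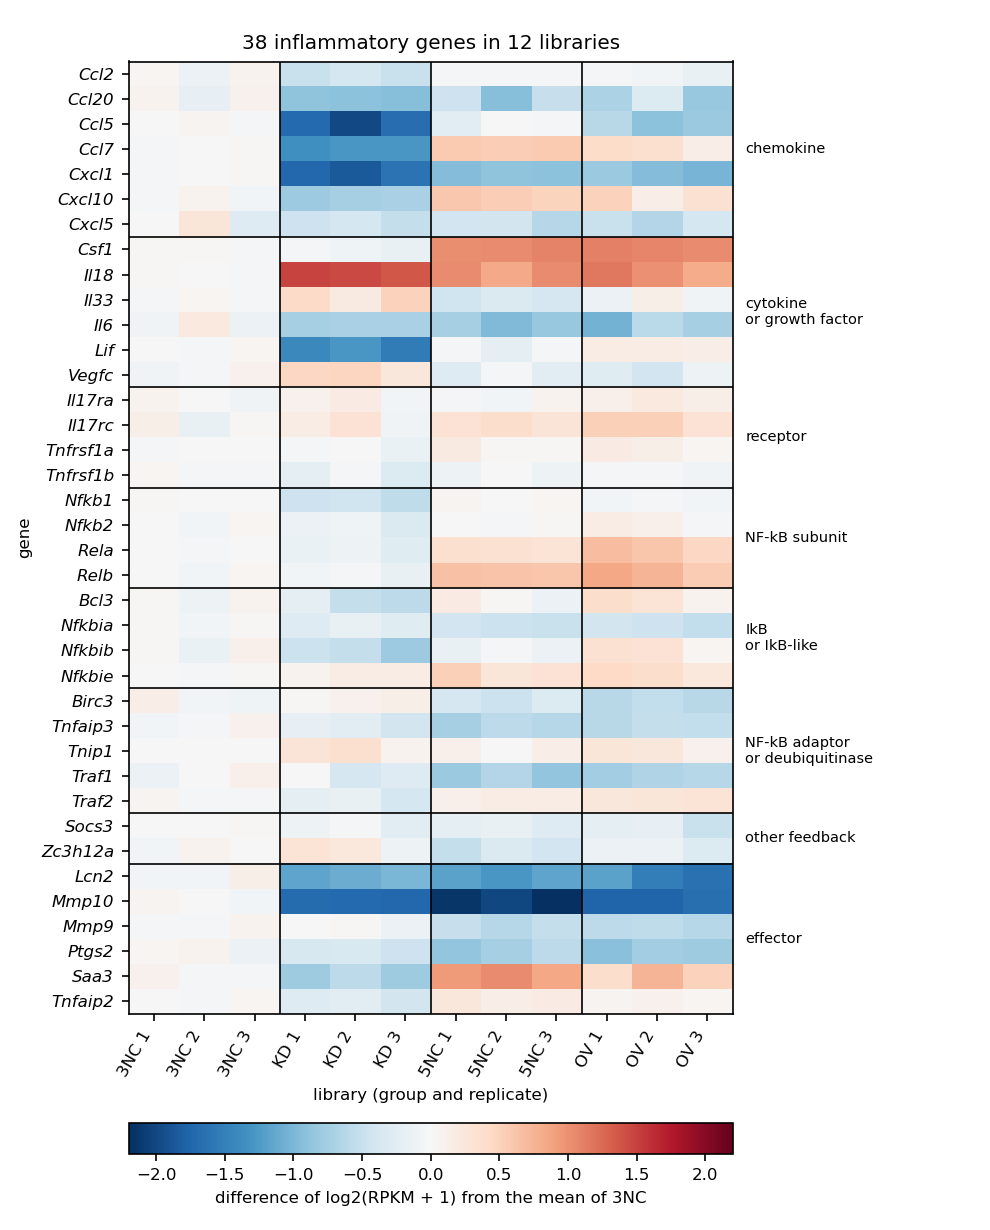
Difference of log2(RPKM + 1) from the mean of the 3NC libraries for the 38 tested genes (rows, grouped by role) in the 12 libraries (columns), with blue below and red above 3NC. The 7 chemokine rows are blue in all 3 KD libraries, while the rows of Csf1, Relb and Saa3 are red in 5NC and OV.

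The chemokines are small secreted proteins that attract white blood cells. Cxcl1, which attracts neutrophils, was at 50.1, 50.7 and 51.5 RPKM in the 3NC libraries, 14.7, 13.3 and 15.8 in KD, 25.6, 27.1 and 26.7 in 5NC and 28.4, 25.7 and 24.4 in OV. Its 3NC libraries lay above and its KD libraries below all others, and it fell in KD (log2 fold change -1.73 with a standard error of 0.063, adjusted p = 2.50e-11 by limma). Ccl5, which attracts T cells and monocytes, was at 39.2, 41.1 and 38.3 RPKM in the 3NC libraries, 11.4, 9.20 and 11.73 in KD, 33.6, 39.1 and 38.9 in 5NC and 25.6, 20.7 and 22.1 in OV. Each KD library was lower than the 9 others (log2 fold change -1.79 with a standard error of 0.089, adjusted p = 6.55e-10 by limma), and each OV library was lower than each 5NC library (log2 fold change -0.69 with a standard error of 0.089, adjusted p = 0.000303 by limma). Ccl7, a neighbour of Ccl2 on chromosome 11 with a like function, was at 14.4, 14.8 and 15.1 RPKM in the 3NC libraries, 5.15, 5.45 and 5.5 in KD, 22.6, 22.1 and 22.4 in 5NC and 19.8, 19.0 and 16.4 in OV. It was lowest in KD (log2 fold change -1.31 with a standard error of 0.064, adjusted p = 5.66e-10 by limma) and highest in 5NC, and OV lay below 5NC without overlap (log2 fold change -0.27, adjusted p = 0.0106, limma).

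Cxcl10, a target of interferon and NF-kB that attracts T cells, was at 13.4, 14.3 and 13.1 RPKM in the 3NC libraries, 7.39, 7.75 and 7.87 in KD, 20.9, 20.1 and 19.6 in 5NC and 19.7, 15.1 and 17.4 in OV. KD was below the 9 other libraries (log2 fold change -0.75 with a standard error of 0.076, adjusted p = 1.03e-06 by limma), 5NC lay above 3NC, and OV and 5NC overlapped. Ccl20, the ligand of CCR6, was at 4.86, 3.90 and 4.93 RPKM in the 3NC libraries, 2, 1.95 and 1.90 in KD, 3.03, 1.88 and 2.89 in 5NC and 2.43, 3.48 and 2.10 in OV. It fell in KD against 3NC (log2 fold change -0.91 with a standard error of 0.14, adjusted p = 5.36e-05 by limma), while the KD libraries lay within the range of 5NC. Ccl2 was at 241, 215 and 248 RPKM in the 3NC libraries, 167, 178 and 166 in KD, 230.5, 229 and 229 in 5NC and 228, 224 and 210.3 in OV. The KD libraries lay below all others at this high level (log2 fold change -0.46 with a standard error of 0.053, adjusted p = 4.03e-06 by limma), the OV libraries lay just below those of 5NC (not called), and 3NC overlapped with both. Cxcl5, a further ligand for neutrophils, was near 1 RPKM. It was between 1.12 and 2.09 RPKM in 3NC and between 0.780 and 0.970 in KD (log2 fold change -0.46, adjusted p = 0.00483, limma, and -0.77 with a pseudocount of 0.1), and KD, 5NC and OV overlapped.

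**Figure D3:**
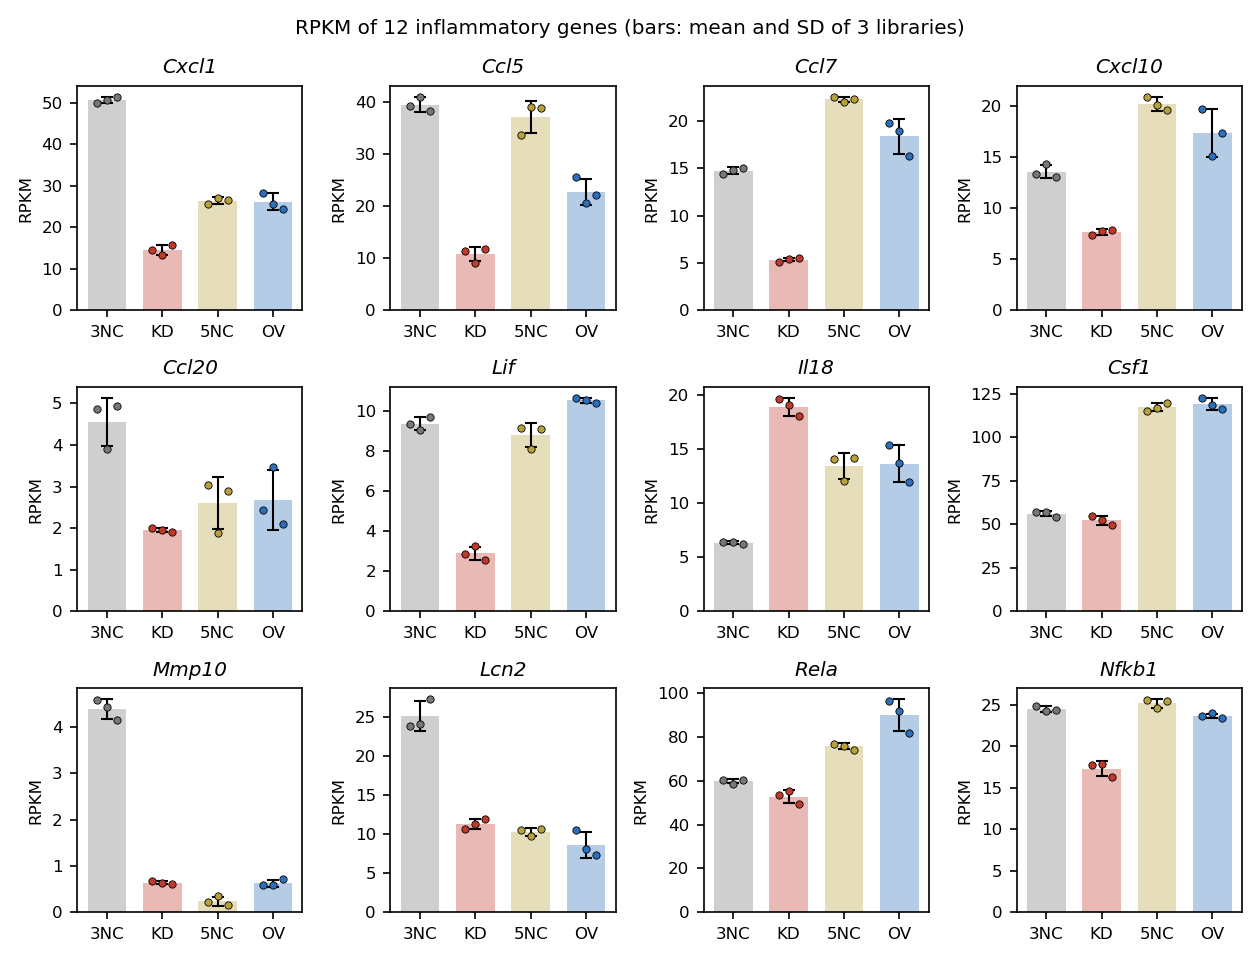
RPKM of 12 of the genes in the 3 libraries of each group (points), with the mean (bar, axis from 0) and the SD (error bar). Cxcl1, Ccl5, Ccl7, Cxcl10 and Lif are lowest in KD, Il18 is highest in KD, and Csf1 is at about the same level in 3NC and KD and higher in 5NC and OV.

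The other ligands did not move together. Lif, a cytokine of the IL-6 family that acts on stem cells, was at 9.34, 9.05 and 9.66 RPKM in the 3NC libraries, 2.87, 3.24 and 2.58 in KD, 9.15, 8.07 and 9.06 in 5NC and 10.6, 10.5 and 10.4 in OV. It fell in KD (log2 fold change -1.41 with a standard error of 0.071, adjusted p = 6.57e-10 by limma) and its OV libraries were above all 9 others (log2 fold change 0.24 against 5NC, adjusted p = 0.0269, limma). Il6, a main product of IL-17 and TNF signals, was at 1.65, 2.24 and 1.57 RPKM in the 3NC libraries, 0.690, 0.710 and 0.720 in KD, 0.690, 0.430 and 0.570 in 5NC and 0.370, 0.870 and 0.690 in OV. It was read above 1 RPKM in 3NC alone, and fell in KD (log2 fold change -0.72 with a standard error of 0.12, adjusted p = 0.000117 by limma), by 1.23 on the log2 scale with a pseudocount of 0.1. Il18, a cytokine of the IL-1 family, was at 6.45, 6.39 and 6.22 RPKM in the 3NC libraries, 19.7, 19.1 and 18.04 in KD, 14.0, 12.04 and 14.2 in 5NC and 15.4, 13.7 and 11.9 in OV. It was highest in KD and lowest in 3NC, and rose in KD (log2 fold change 1.44 with a standard error of 0.081, adjusted p = 2.01e-09 by limma). Il33, an alarmin of the same family, was at 1.64, 1.77 and 1.65 RPKM in the 3NC libraries, 2.60, 2.07 and 2.82 in KD, 0.980, 1.15 and 1.07 in 5NC and 1.46, 1.95 and 1.54 in OV. Its KD libraries were above and its 5NC libraries below all others, and it rose both in KD (log2 fold change 0.37, adjusted p = 0.00353, limma) and in OV (0.35, adjusted p = 0.0181, limma).

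Vegfc, a growth factor for lymphatic vessels, was between 2.48 and 3.06 RPKM in KD and between 1.76 and 2.14 in 3NC. It rose in KD (log2 fold change 0.39 with a standard error of 0.10, adjusted p = 0.00380 by limma) without overlap with any other group. Csf1, which sustains macrophages, was at 56.9, 56.9 and 54.3 RPKM in the 3NC libraries, 54.9, 52.2 and 49.8 in KD, 115, 117 and 119.9 in 5NC and 122.69, 118 and 116 in OV. The 3NC and KD libraries overlapped (log2 fold change -0.099, adjusted p = 0.0772, limma), and 5NC and OV were at 115.3 RPKM or more. Csf1 thus differed between the groups with LV3 and those with LV5, and was not called in KD or OV against their own controls.

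Of the 4 receptor genes tested, 1 was called in KD against 3NC, against 55.4% of all genes tested called in either direction. In OV against 5NC 0 were called, against 22%. The TNF receptors Tnfrsf1a and Tnfrsf1b ranged over the 12 libraries from 46.3 to 59.1 and from 8.02 to 10.4 RPKM, and the IL-17 receptor subunits Il17ra and Il17rc from 9.02 to 11.2 and from 19.6 to 32.1. Tnfrsf1b was called lower in KD (log2 fold change -0.18 with a standard error of 0.069, adjusted p = 0.0361 by limma), and the call was lost when any of 5 of the 6 libraries was left out (adjusted p up to 0.143, limma, without KD replicate 3). Tnfrsf1a, Il17ra and Il17rc were not called in KD or in OV. Without KD replicate 3, Il17rc was called higher in KD (log2 fold change 0.23, adjusted p = 0.0330, limma). Il17rc was also higher in 5NC than in 3NC (log2 fold change 0.33, adjusted p = 0.00658, limma), and in KD against 5NC Tnfrsf1a was called lower (-0.15, adjusted p = 0.0354, limma).

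The NF-kB components moved by less than 1 on the scale of log2(RPKM + 1) in every comparison with a control group. With a pseudocount of 0.1, Traf1, which is under 1 RPKM in most libraries, moved by -2.10 in 5NC against 3NC and by 1.67 in KD against 5NC. Nfkb1, the gene of the p105 precursor of p50, was at 24.9, 24.3 and 24.4 RPKM in the 3NC libraries, 17.7, 17.9 and 16.2 in KD, 25.6, 24.6 and 25.4 in 5NC and 23.6, 23.9 and 23.4 in OV. The KD libraries lay below all others (log2 fold change -0.48 with a standard error of 0.048, adjusted p = 9.31e-07 by limma). Rela, the gene of the activating subunit p65, was at 60.2, 58.7 and 60.2 RPKM in the 3NC libraries, 53.6, 55.4 and 49.3 in KD, 76.9, 75.8 and 74.1 in 5NC and 96.2, 91.9 and 81.9 in OV. It was lowest in KD and highest in OV, with 3NC and 5NC apart in between. In KD it fell by a small amount (log2 fold change -0.18 with a standard error of 0.057, adjusted p = 0.0165 by limma), which was not called without KD replicate 3 (adjusted p = 0.0706, limma), and it rose in OV (log2 fold change 0.25 with a standard error of 0.057, adjusted p = 0.0101 by limma). Relb, a subunit of the alternative branch, was at 26.0, 24.6 and 26.7 RPKM in the 3NC libraries, 24.7, 25.2 and 22.9 in KD, 40.8, 40.4 and 40.03 in 5NC and 47.0, 44.2 and 38.6 in OV. The 3NC and KD libraries overlapped, and 5NC and OV lay above them. Nfkb2, the partner of Relb, ranged from 47.8 to 67.4 RPKM over the 12 libraries and was called lower in KD (log2 fold change -0.18 with a standard error of 0.061, adjusted p = 0.0196 by limma). That call too was lost without KD replicate 3 (adjusted p = 0.0921, limma), and without 3NC replicate 1 or 3.

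Among the IkB genes, whose products hold NF-kB in the cytoplasm or act with it in the nucleus, Nfkbia was at 95.2, 89.6 and 94.1 RPKM in the 3NC libraries, 76.2, 83.3 and 77.4 in KD, 69.2, 66.5 and 66.2 in 5NC and 70.2, 67.2 and 63.7 in OV. It was highest in 3NC, lower in KD (log2 fold change -0.23 with a standard error of 0.049, adjusted p = 0.000906 by limma), and lowest in 5NC and OV, which overlapped. Nfkbib, a second cytoplasmic inhibitor, was at 16.3, 14.4 and 17.3 RPKM in the 3NC libraries, 11.3, 10.8 and 8.74 in KD, 14.1, 15.6 and 14.5 in 5NC and 20.3, 20.1 and 16.5 in OV. It was lowest in KD (log2 fold change -0.60 with a standard error of 0.095, adjusted p = 8.25e-05 by limma) and higher in OV than in 5NC (log2 fold change 0.34 with a standard error of 0.095, adjusted p = 0.0215 by limma). Bcl3, an IkB-like coactivator in the nucleus, was between 12.6 and 14.6 RPKM in 3NC and between 8.88 and 11.6 in KD and fell (log2 fold change -0.44 with a standard error of 0.10, adjusted p = 0.00224 by limma). Nfkbie was not called in KD (log2 fold change 0.13, adjusted p = 0.127, limma).

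Adaptors and deubiquitinases act between the receptors and NF-kB. Tnfaip3 (A20), an enzyme that edits ubiquitin chains and damps the signal, was at 7.26, 7.30 and 8.18 RPKM in the 3NC libraries, 6.55, 6.34 and 5.47 in KD, 4.15, 4.75 and 4.58 in 5NC and 4.59, 4.95 and 4.89 in OV. It was highest in 3NC and fell in KD (log2 fold change -0.27 with a standard error of 0.076, adjusted p = 0.00697 by limma), and its KD libraries lay above those of 5NC and OV. Tnip1, a partner of A20, was between 29.2 and 29.7 RPKM in 3NC and between 31.1 and 37.8 in KD and was the only component that rose (log2 fold change 0.23 with a standard error of 0.067, adjusted p = 0.00832 by limma). Traf2, an adaptor of the TNF receptors, fell in KD (log2 fold change -0.26 with a standard error of 0.061, adjusted p = 0.00203 by limma). Traf1, an adaptor that NF-kB itself induces, was at 0.830, 1.01 and 1.14 RPKM in the 3NC libraries, 1, 0.540 and 0.640 in KD, 0.130, 0.270 and 0.0900 in 5NC and 0.170, 0.250 and 0.290 in OV. It was near 1 RPKM in 3NC, was not called in KD (adjusted p = 0.108, limma), and was lower in 5NC and OV than in 3NC and KD. Birc3, a ubiquitin ligase at the TNF receptor, was between 3.13 and 3.90 RPKM in 3NC and between 3.5 and 3.84 in KD and was not called (adjusted p = 0.407, limma). The other feedback genes Socs3, an inhibitor of JAK kinases, and Zc3h12a, an RNase that destroys cytokine mRNAs, were not called in KD either, with log2 fold changes of -0.13 and 0.14, and without KD replicate 3 Zc3h12a was called higher (adjusted p = 0.0139, limma).

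Effectors are targets whose products act on matrix, prostaglandins, iron or adhesion. Mmp10 (stromelysin 2) was at 4.58, 4.42 and 4.14 RPKM in the 3NC libraries, 0.670, 0.640 and 0.620 in KD, 0.220, 0.350 and 0.160 in 5NC and 0.580, 0.580 and 0.710 in OV. It was read above 1 RPKM in 3NC alone and fell in KD (log2 fold change -1.71 with a standard error of 0.082, adjusted p = 4.40e-10 by limma), by 2.59 on the log2 scale with a pseudocount of 0.1. Lcn2, a protein that binds the iron carriers of bacteria, was at 23.9, 24.1 and 27.4 RPKM in the 3NC libraries, 10.7, 11.3 and 11.9 in KD, 10.6, 9.74 and 10.6 in 5NC and 10.5, 8.11 and 7.36 in OV. It was highest in 3NC by a wide gap and fell in KD (log2 fold change -1.08 with a standard error of 0.095, adjusted p = 2.43e-07 by limma), where it lay just above 5NC and OV, which overlapped. Saa3, an acute phase protein, was at 0.840, 0.680 and 0.670 RPKM in the 3NC libraries, 0, 0.160 and 0 in KD, 2.30, 2.55 and 2.13 in 5NC and 1.26, 1.91 and 1.46 in OV. It was listed at 0 in 2 KD libraries and was highest in 5NC, and in KD against 3NC it fell by 0.72 on the log2 scale (adjusted p = 3.24e-05, limma), or by 2.59 with a pseudocount of 0.1. Ptgs2 (cyclooxygenase 2), which starts prostaglandin synthesis, was at 2.5, 2.57 and 2.09 RPKM in the 3NC libraries, 1.65, 1.68 and 1.47 in KD, 0.860, 1.04 and 1.26 in 5NC and 0.790, 0.980 and 0.960 in OV. It was highest in 3NC, intermediate in KD (log2 fold change -0.38 with a standard error of 0.092, adjusted p = 0.00257 by limma) and lowest in 5NC and OV. Tnfaip2 fell in KD (log2 fold change -0.30 with a standard error of 0.052, adjusted p = 0.000160 by limma) and Mmp9, a gelatinase, was not called (adjusted p = 0.720, limma).

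Secreted ligands and NF-kB components were then set side by side. In KD against 3NC, 9 of 13 tested ligands fell, 3 rose and 1 was not called, and of 13 components 8 fell, 1 rose and 4 were not called, against 23.5% of all genes tested that fell and 31.9% that rose. The median log2 fold change was -0.72 for the ligands, -0.21 for the components and 0.041 for all genes tested. The ligand median was the value of Il6, which passed the limit through 3NC alone. The component median was that of Traf1, which passed through 3NC and KD. Ligands ranged from -1.79 (Ccl5) to 1.44 (Il18), and components from -0.60 (Nfkbib) to 0.23 (Tnip1). The absolute log2 fold change reached 1 for 5 ligands (Ccl5, Cxcl1, Lif, Ccl7 and Il18), for 0 components and for 193 of all 11435 genes tested, and its median was 0.75 for ligands, 0.23 for components and 0.20 for all genes tested. Without KD replicate 3 the medians were -0.72 for ligands and -0.18 for components. Of the 11 ligands with at least 1 RPKM in each group, 7 fell, against 23.8% of all such genes, and 3 rose, against 31.7%. The median log2 fold change of these 11 was -0.75. The classes also differed in what RPKM can carry over from a library. Tested ligands had a median GC content of 44.9%, components of 55.7% and all tested genes of 50.2%, and the fold changes of KD against 3NC ran weakly with GC content across genes (rho -0.10). After a correction for GC content and length, added once the data had been seen, the medians were -0.80 and -0.22.

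**Figure D4:**
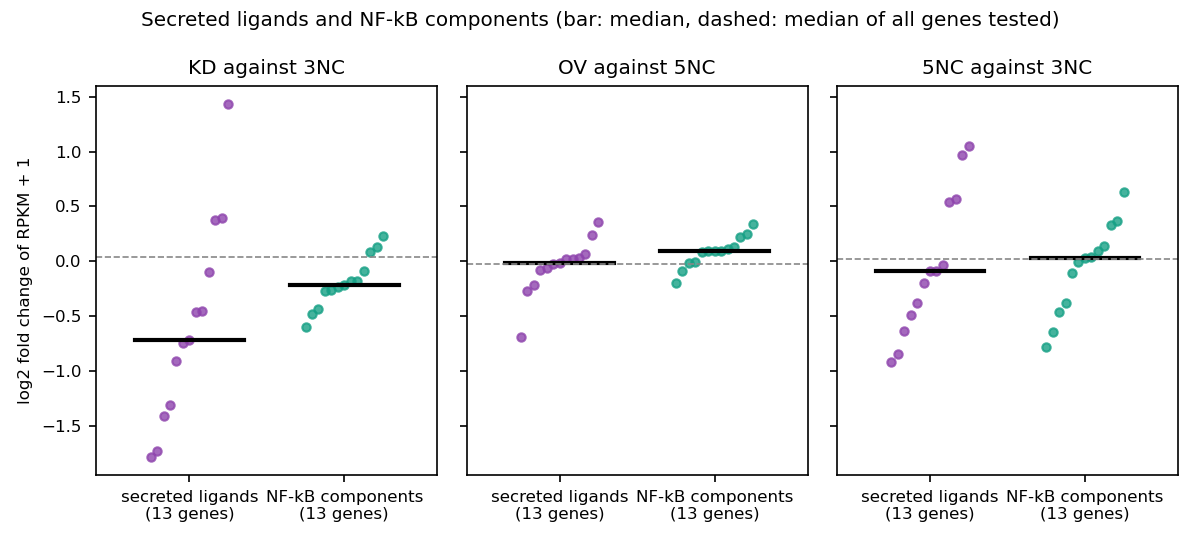
Log2 fold change of RPKM + 1 of each of 13 tested secreted ligands (purple) and 13 NF-kB components (green) in 3 comparisons, with the median of each class as a bar and the median of all genes tested as a dashed line. In KD against 3NC the ligands spread from -1.79 to 1.44 and the components from -0.60 to 0.23, and in OV against 5NC the ligands spread from -0.69 to 0.35 and the components from -0.20 to 0.34, with medians near 0.

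Genes with a kappaB match in the promoter were found among those that fell and those that did not. Of the 11 genes with a match, 10 were tested, and of these 7 fell in KD against 3NC (23.5% of all genes tested), 1 rose (Tnip1, against 31.9%) and 2 were not called (Csf1 and Nfkbie), with a median log2 fold change of -0.25. Of the 9 that reached 1 RPKM in each group, 6 fell, against 23.8% of all such genes, with a median of -0.23. Among the genes with a promoter in the table that moved by more than 1 on the log2 scale, Cxcl1 had a kappaB match, and Lif, Lcn2, Il18 and Mmp10 had none in the window searched. Of 7 tested genes with an AP-1 match, 6 fell in KD and 1 was not called, with a median of -0.72, but without Il6 and Mmp10, which passed the limit through 3NC alone, 4 of 5 fell and the median was -0.27. Of 7 with a C/EBP match, 5 fell and 2 rose (Il33 and Vegfc), but of the 3 that reached 1 RPKM in each group 1 fell (Lcn2) and 2 rose. Of all 38 tested genes of the set, with or without a match, 23 fell, and of the 31 that reached 1 RPKM in each group 18 fell.

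The OV group differed from 5NC in few of the genes, and by small amounts. Il33, Lif, Rela, Nfkbib and Mmp10 rose in OV against 5NC and Ccl5, Ccl7 and Saa3 fell (limma, adjusted p of at most 0.05). That was 5 higher of 38, against 8.07% of all genes tested, and 3 lower, against 13.9%. Of the 31 genes that reached 1 RPKM in each group, 4 were higher, against 8.22%, and 2 lower, against 14%. At the threshold of the study 0 genes of the set were higher and 0 lower, as for all genes tested (0% and 0%). On the scale of log2(RPKM + 1) the largest change was that of Ccl5, which fell by 0.69, while with a pseudocount of 0.1 it was smaller for Ccl5 (-0.71) than for Mmp10 (1.11). Mmp10 was at 0.220, 0.350 and 0.160 RPKM in 5NC and 0.580, 0.580 and 0.710 in OV, under 1 RPKM in both (log2 fold change 0.39 with a standard error of 0.082, adjusted p = 0.00622 by limma). The fall of Saa3 had a log2 fold change of -0.39 (adjusted p = 0.0170, limma) and was not called with a pseudocount of 0.1 (adjusted p = 0.181, limma). Medians were -0.019 for ligands, 0.091 for components and -0.027 for all genes tested. Since fold changes of this comparison ran with GC content (rho 0.41) and the components are richer in GC, the medians were also taken after the correction for GC content and length, where they were 0.031 and 0.068.

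Ccl5, Ccl7 and Mmp10 were called whichever of the 6 libraries was left out, while Il33, Lif, Rela, Nfkbib and Saa3 were each lost at least once. Without OV replicate 3, 8 genes were higher, Relb, Bcl3 and Zc3h12a being added, and 3 were lower. Without OV replicate 1, OV replicate 2 or 5NC replicate 3, 2 were higher, and without 5NC replicate 1, 3 were. After the correction for GC content and length 6 were higher and 7 lower, since Cxcl10, Socs3, Lcn2 and Tnfaip2 were then called lower and Il17ra higher. Shares over all genes were not taken for the correction or for any other alternative fit, so these counts have none beside them.

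**Figure D5:**
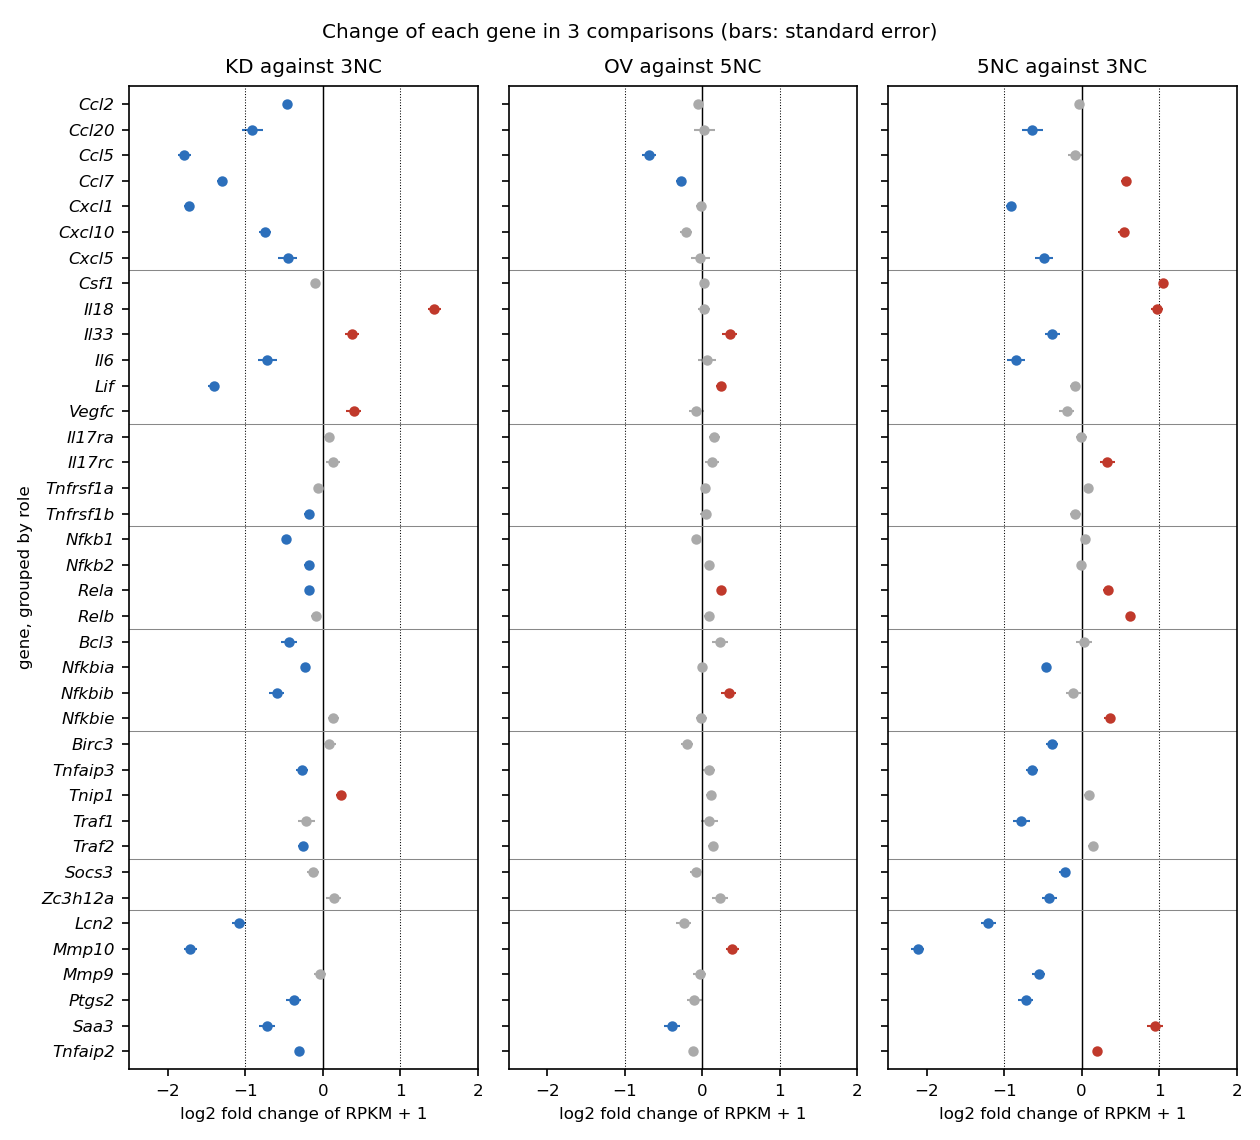
Log2 fold change of RPKM + 1 with its standard error (bar) for the 38 tested genes, grouped by role, in 3 panels, which compare KD and 5NC with 3NC and OV with 5NC. Points are blue or red where the gene was lower or higher at an adjusted p of at most 0.05 (limma) and grey otherwise, and the dotted lines mark a log2 fold change of 1 in either direction.

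The control groups 3NC and 5NC also differed from each other in these genes. In 5NC against 3NC, Mmp10, Lcn2, Cxcl1, Il6, Traf1, Ptgs2, Ccl20 and Tnfaip3 were among 15 genes that were lower, against 25.6% of all genes tested, and Csf1, Il18, Saa3, Relb, Ccl7 and Cxcl10 among 10 that were higher, against 31%. Of the 15, Mmp10, Il6, Cxcl5, Traf1, Mmp9 and Ptgs2 had reached 1 RPKM in some of the groups only. Among the 31 genes that reached 1 RPKM in each group, 9 were lower, against 25.4% of all such genes, and 9 higher, against 30.9%. At the threshold of the study Csf1 was higher (1.56% of all genes) and Mmp10 and Lcn2 were lower (1.05%). The log2 fold change was 1.05 for Csf1 (standard error 0.045, adjusted p = 6.86e-11, limma), -2.12 for Mmp10, -1.21 for Lcn2, -0.91 for Cxcl1, 0.97 for Il18 and 0.94 for Saa3. Among the components Relb rose by 0.63, the inhibitor gene Nfkbie by 0.36 and Rela by 0.34, while Traf1 (-0.78), Tnfaip3 (-0.64), Nfkbia (-0.46) and Birc3 (-0.38) fell. These groups differ in the vector, in the shRNA of LV3 and in their culture, whose parts cannot be told apart. The median was -0.087 for ligands, 0.029 for components and 0.021 for all genes tested. KD against 3NC shares the 3NC libraries with this comparison, and OV against 5NC shares those of 5NC.

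Because of that, each KD value was also set against 5NC. Lower in KD than in either control were Cxcl1, Cxcl10, Ccl2, Ccl5, Ccl7, Lif, Nfkb1, Nfkb2, Rela, Nfkbib, Bcl3, Traf2, Saa3 and Tnfaip2, in each of which the KD libraries lay below all 9 others. That was 14 of 38 genes, against 14.8% of all genes tested, or 13 of the 31, against 15%. Above all 9 others in KD were Il33, Il18 and Vegfc, 3 of 38, against 20.5%. For Cxcl5, Ccl20, Il6, Nfkbia, Tnfaip3, Socs3, Ptgs2, Mmp10, Lcn2 and Cxcl1, the 3NC libraries lay above all 9 others, 10 of 38, against 9.58%. Since Cxcl5, Il6 and Mmp10 passed the limit through 3NC alone, they had to be high there, and over the 31 genes the count was 6, against 9.6%. These counts by position were chosen after the values had been seen.

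Against 5NC, the KD values split the genes that had fallen against 3NC. In KD against 5NC, 18 genes were lower, against 31.4% of all genes tested, and 11 were higher, against 34%. Of the 31 genes, 17 were lower, against 31.5%, and 7 higher, against 33.7%. At the threshold of the study Cxcl10, Ccl5, Ccl7, Lif, Csf1 and Saa3 were lower (6 of 38, against 2.29%) and 0 were higher (1.26%), and without Saa3, which passed through 5NC and OV alone, 5 of the 31 were lower. Ccl5 had a log2 fold change of -1.70, Ccl7 of -1.87, Lif of -1.33 and Cxcl1 of -0.82, each lower in KD. Lcn2 (0.12, adjusted p = 0.279, limma), Il6 (0.13, adjusted p = 0.349, limma) and Ccl20 (-0.27, adjusted p = 0.0964, limma) were not called, and Mmp10 (0.41), Nfkbia (0.23), Tnfaip3 (0.37) and Ptgs2 (0.34) were higher in KD than in 5NC. The directions of these last genes in KD thus depended on which control was taken.

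The effect of knockdown was compared with that of overexpression by the difference of both log2 fold changes in the same fit. It was negative and called for 19 of the 38 genes, against 20.7% of all genes tested, and positive for 3, against 31.2%. Of the 31 genes, it was negative for 16, against 21%, and positive for 3, against 31%. All 7 chemokines were among the 19, from -1.71 (Cxcl1) to -0.40 (Ccl2). Of these, Cxcl5 (-0.43) passed the limit through 3NC alone. Cxcl5 and Ccl20 were not called in KD against 5NC (adjusted p = 0.853 and 0.0964, limma). For Mmp10 the difference was -2.10, for Lif -1.65 and for Nfkbib -0.94, genes that fell in KD and rose in OV against their own controls. Mmp10 passed the limit through 3NC alone, and its mean was 0.643 RPKM in KD and 0.623 in OV. The difference of effects takes in the gap of 5NC against 3NC, which was -2.12 for Mmp10. In KD against 5NC Mmp10 was higher (0.41). Against their own controls, Ccl5 and Ccl7 fell in both KD and OV, by more in KD, with differences of -1.10 (standard error 0.13, adjusted p = 5.74e-06, limma) and -1.04 (standard error 0.091, adjusted p = 4.28e-07, limma). Il33 rose in both and the difference was not called (0.020, 95% interval from -0.27 to 0.30). Of the 3 positive genes, Il18 and Vegfc were ligands and Birc3 was a component whose adjusted p was 0.050 (limma).

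A further 76 genes of the pathway, from a list written alongside the set, gave a frame for these values. Of them 71 were listed and 51 tested. In KD against 3NC 13 rose, against 31.9% of all genes tested, and 12 fell, against 23.5%, shares near or below those of all genes, with a median log2 fold change of 0.030. At the threshold of the study 3 fell, against 1.08%, and 0 rose. They were Ier3, an early response gene that acts against apoptosis, from 250.5 ± 4.35 RPKM in 3NC to 85.7 ± 2.63 in KD (log2 fold change -1.54), Cebpb, a transcription factor of IL-17 signals, from 41.2 ± 3.69 to 18.1 ± 3.41 (-1.16), and Tnfrsf12a, the receptor of TWEAK, from 208.8 ± 7.84 to 103.6 ± 3.63 (-1.004, all with SD and n = 3). Of the 15 tested genes of the IKK, TAK1 and ubiquitin machinery, 1 rose and 1 fell in KD, and of 5 tested transcription factors and IkB proteins 1 rose and 3 fell. Of 4 tested secreted ligands on that list, named here after their values were seen, the chemokine genes Ccl17 (log2 fold change 0.62, adjusted p = 0.000961, limma) and Cx3cl1 (0.60, adjusted p = 1.14e-05, limma) rose, also against 5NC (0.73 and 0.42). The chemokine gene Cxcl16 (-0.55) and Edn1 (-0.66) fell, and Cxcl16 was not called against 5NC (-0.23, adjusted p = 0.160, limma). The fall of the chemokines in KD thus did not extend to all chemokine genes tested. In OV against 5NC 5 of the 51 rose, against 8.07%, and 9 fell, against 13.9%, and 0 passed the threshold of the study in either direction. In 5NC against 3NC 16 rose, against 31%, and 13 fell, against 25.6%, Cebpd (1.01) and Jag1 (1.01) being higher and Nfkbiz (-1.06) lower at that threshold. Against 5NC, KD was lower in 21, against 31.4%, and higher in 12, against 34%, with Cebpd (-1.76), Cebpb (-1.71), Edn1 (-1.58) and Tnfrsf12a (-1.08) past the threshold.

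Some of the genes lie next to each other in the genome by the order of RefSeq protein-coding genes. Ccl2 and Ccl7 are adjacent on chromosome 11 and both were lowest in KD, Ccl7 by the larger amount (log2 fold change -1.31 against -0.46). Cxcl1 and Cxcl2 are adjacent on chromosome 5, where Cxcl2 was at or under 0.07 RPKM in all libraries, and 4 genes lie between Cxcl5 and Cxcl1. Mmp13, Mmp3 and Mmp10 lie within a cluster on chromosome 9, with 2 genes between Mmp13 and Mmp3 and 1 between Mmp3 and Mmp10, and each had lower RPKM in all KD libraries than in all 3NC libraries, as did 27.1% of all genes tested. Of these 3 genes, Mmp3 and Mmp13 were not tested and Mmp10 passed the limit through 3NC alone. Birc3, with 6 genes between it and Mmp10, was not called in KD. The aligner was set to report all hits of a read that fits several places, by the methods of the study, and how such reads were then counted per gene is not given in the sources used here, so values of closely related genes are uncertain.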

How the data were processed

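RNA of 12 libraries of C18-4 cells was sequenced, 3 for each of the groups 3NC, KD, 5NC and OV, which were taken from the sample labels. The methods of the study describe oligo(dT) selection and mapping to reference genes with SOAPaligner, while the labels name total RNA. The authors deposited RPKM values for 17576 genes, made from the read number of each gene. The genome build is not given in the sources used here. Since RPKM are scaled by length and depth, read numbers are lost, and a bias of a library by GC content or length remains. The test of the study, DEGseq, needs read numbers and was not run.

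The deposited RPKM were taken to log2(RPKM + 1). The 11435 genes that reached 1 RPKM in 3 or more libraries were tested with limma 3.58.1 in R 4.3.3 (1 fit to all 12 libraries, intensity trend, two-sided, Benjamini-Hochberg adjustment over all genes tested). The fit was tested on simulated data, and 95% intervals take the degrees of freedom of limma. An exact permutation test of 3 libraries against 3 cannot give a p below 0.1. The 50 genes, the list of 76 further genes and the marker lists were chosen with earlier results of these data known. Values in every library are given for genes past the threshold of the study in any comparison, for the 12 with the largest called change in KD against 3NC and in 5NC against 3NC, for 6 such in OV against 5NC, and for Tnf, Il6, Cxcl1, Ccl2, Nfkb1, Rela, Nfkbia and Tnfaip3. Promoters are from RefSeq, and GC content and length from GENCODE on GRCm38 (98.3% of the genes tested). Plots were made in Python 3.11.15 (matplotlib 3.10.9). Alternatives were a pseudocount of 0.1, no filter, quantile normalization, a replicate block, a fit to the 6 libraries compared and each library left out, and, added after the data were seen, a correction for GC content and length.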

Additional observations from a re-analysis of the deposited data

How the results depend on the processing

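No gene of the set that was called changed its direction under an alternative tried, and the 66 single values that did were not called. Medians near 0 did change sign. That of the ligands in OV against 5NC (-0.019) was 0.0025 with quantile normalization, 0.031 after the correction for GC content and length, 0.029 without OV replicate 3 and 0.0045 without 5NC replicate 1, and that of the components in 5NC against 3NC (0.029) was -0.017 with quantile normalization and -0.088 after the correction. Of 2421 values for single genes, 2301, those 66 included, stayed on their side of an adjusted p of 0.05 (limma), 56 came to pass it and 64 no longer did, and where no cause is given it was not tested. The median log2 fold change of the ligands in KD against 3NC (-0.72) was -0.81 with a pseudocount of 0.1, -0.42 without a filter, which adds ligands near 0, -0.80 after the correction for GC content and length, and between -0.77 and -0.71 with 1 library left out. In OV against 5NC, that correction gave 7 lower genes in place of 3, and leaving out 1 library gave 2 to 8 higher genes in place of 5. In 5NC against 3NC at the threshold of the study, a pseudocount of 0.1 gave 3 higher and 6 lower genes in place of 1 and 2, since it shrinks low genes less, and leaving out 1 library gave 1 to 2 of each. Without 3NC replicate 1, 2 or 3, Mmp10 no longer had 3 libraries at 1 RPKM and was not tested, which left Lcn2. In KD against 3NC a pseudocount of 0.1 gave 9 lower genes at the threshold of the study in place of 6, and leaving out 1 library gave 18 to 23 lower genes at an adjusted p of 0.05 (limma) in place of 23. In KD against 5NC that pseudocount gave 4 higher genes at that threshold in place of 0. The difference of the knockdown and overexpression effects was called for 22 genes, for 29 after the correction, and for 18 to 24 with 1 library left out.

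The replicate numbers were not taken to pair the samples. The correlation of deviations between libraries with the same number was between -0.18 and 0.18 in the comparisons with a control group, and -0.012, 0.18 and 0.35 between KD and OV, which enter the difference of effects. With the replicate block, 23 genes were lower and 4 higher in KD against 3NC, as without it, and 21 genes were called for the difference of effects in place of 22 (Birc3 was lost). It also added Il17rc to the genes lower in KD against 5NC, 19 in place of 18, and changed no other call. RPKM carry no read numbers, so genes near 1 RPKM have a precision that cannot be given.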
